A study of Homo sapiens with 12 samples.

Results

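The members described here are the subunits of the mitochondrial oxidative phosphorylation complexes that are encoded by nuclear genes. The rule that defines them uses gene symbols and no measured value, taking protein-coding genes outside the mitochondrial chromosome whose GENCODE symbol starts with NDUFA, NDUFB, NDUFC, NDUFS, NDUFV, UQCR, COX4 to COX8 or ATP5, or is CYC1 or SDHA to SDHD, without the NDUFAF assembly factors. The rule found 91 of the 58721 genes in the count files, 38 of complex I, 4 of complex II, 10 of complex III, 19 of complex IV and 20 of complex V. The study silenced IGF2BP3, which encodes a protein that binds mRNA, by siRNA in the human liver cancer cell line HepG2 (siIGF2BP3), with a non-targeting siRNA as the other condition (siControl), and profiled ribosomes 2 days later. All cells, controls included, received 100 µg/mL cycloheximide, which halts elongating ribosomes, for 4 min before lysis. Each condition had 3 Input libraries, which measure RNA level, and 3 libraries of ribosome-protected fragments of 28 to 30 nt (RPF, the footprints), 12 libraries in 4 groups. The labels do not say whether the 3 samples of a group came from separate cultures, so p-values measure the spread between these samples, which may be technical.

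Oxidative phosphorylation moves electrons from NADH and succinate through complexes I, II, III and IV to oxygen, and the proton gradient built by complexes I, III and IV drives ATP synthesis by complex V. All subunits of complex II and most subunits of the others are made on cytosolic ribosomes from nuclear genes and imported, while a small core set is encoded and translated inside the mitochondrion. Hepatocytes, the cells that HepG2 resembles, are rich in mitochondria. The nuclear subunits fall into catalytic or electron-carrying cores, small accessory subunits and, in complex V, the catalytic head, the stalks and the membrane rotor.

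Values are read counts scaled by library total (CPM), the log2 RPF/Input of a gene compares its CPM in footprints and Input libraries of the same number, and TE is the change of RPF/Input after knockdown. Library totals ran from 11219750 to 14797573 counts in Input and from 13036423 to 31510601 in RPF. IGF2BP3 itself, the targeted gene, had 133, 129 and 127 against 103, 97.9 and 105 CPM in siControl and siIGF2BP3 Input, and 74.6, 78.1 and 77.7 against 21.9, 28.0 and 25.2 CPM in RPF, so it went the way of the labels. The liver markers ALB, AFP, APOA1, APOB, SERPINA1 and TTR were at no less than 94.1 CPM in any library, and CD3E, PTPRC, VIM, COL1A1 and COL1A2, which mark other cells, at no more than 0.636 CPM (PECAM1 reached 4.97 and VWF 1.07 CPM). siControl RPF replicates 2 and 3 differed by less than sampling noise over all genes (mean chi-square 0.941 per gene, 1.21 over the members) and were counted as 1 sample in each mean ± SD, so siControl RPF has n = 2. siIGF2BP3 RPF replicate 1 stood apart, with a mean chi-square over the members of 28.8 and 33.4 against replicates 2 and 3, which differed from each other by 1.20. RPF and TE results are therefore given with and without that library. CPM are relative to the rest of each library, and in bulk samples fewer cells of a type and less RNA per cell cannot be told apart.

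Together the 91 members took 9124, 8998 and 8934 CPM in the siControl Input libraries and 12632, 12496 and 12551 CPM in the siControl RPF libraries, so a larger share of footprints than of RNA lay on them in each replicate. Complex V took the largest share of footprints, at 4649, 4597 and 4660 CPM against 2554, 2463 and 2456 CPM in Input. Complex I followed at 4118, 4062 and 4059 CPM in RPF and 2685, 2593 and 2555 CPM in Input. Complex IV went the other way, with 1924, 1921 and 1920 CPM in RPF, below its 2203, 2234 and 2249 CPM in Input in every replicate. Complex III was at 1548, 1530 and 1521 CPM in RPF and 1376, 1396 and 1366 CPM in Input, and complex II, the smallest, at 393, 386 and 391 CPM in RPF and 307, 312 and 309 CPM in Input.

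**Figure D1:**
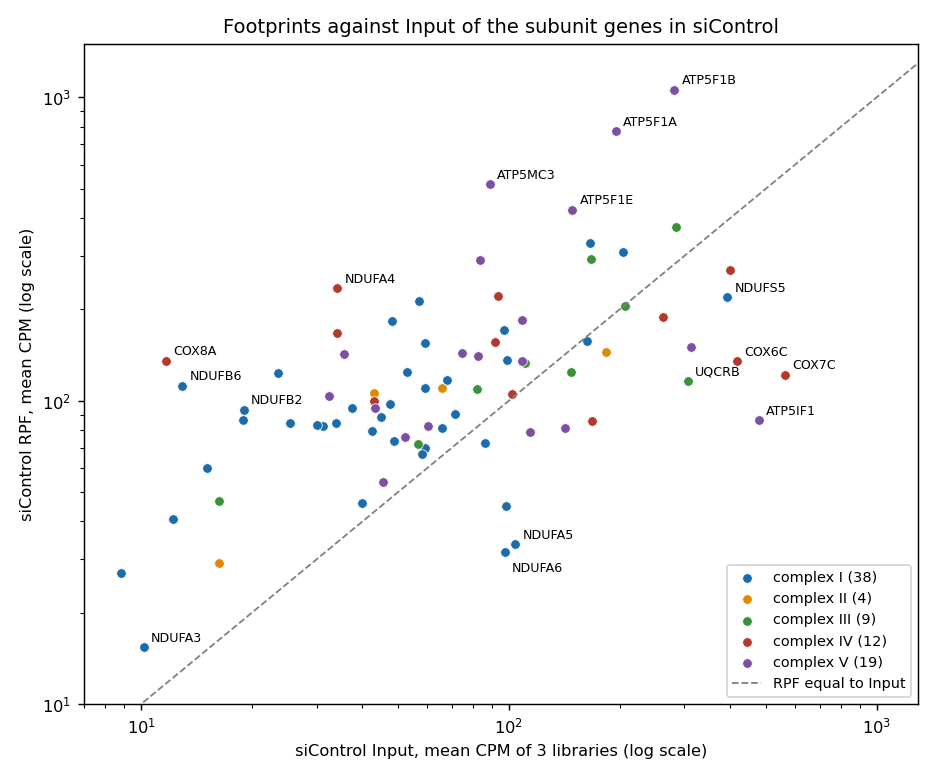
Mean siControl CPM of each member in Input (x axis, log scale) and in RPF (y axis, log scale), coloured by complex, for the 82 members with at least 5 CPM in Input. Points above the dashed line hold more CPM in footprints than in Input. COX8A and NDUFB6 lie farthest above the line and ATP5IF1 and COX7C farthest below it.

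Of the 91 members, 82 had a mean of at least 5 CPM in siControl Input (all but COX4I2, COX6A2, COX6B2, COX7A1, COX7B2, COX8C, NDUFA4L2, ATP5MGL and UQCRHL), and their median log2 RPF/Input was 0.78, against -0.23 over the 10137 protein-coding genes with at least 5 CPM. No test belongs to this comparison, and the members are short genes, with a median canonical transcript of 760.5 bases against 3379. By this ratio 65 of the 82 members lay above the median of the protein-coding genes. The median was 0.92 in complex I, 0.82 in complex II, 0.34 in complex III, 0.37 in complex IV and 0.77 in complex V. The range within a complex was wider than the differences between complexes, from -2.18 to 3.51 in complex IV and from -2.48 to 2.52 in complex V, while the median SD was 0.06 (n = 2), or 0.07 over the 3 replicate numbers, since averaging replicates 2 and 3 also averages their Input. Across the 82 members log2 RPF/Input fell with the Input CPM per kb of canonical transcript (Spearman rho -0.51, a description over genes that share the same libraries, and Input is also the denominator). Over protein-coding genes the same rho was -0.08. With Input CPM not scaled by length, rho was -0.67 over the members and -0.28 over the protein-coding genes. Per kb, the footprints were closer together than the Input in each complex, most so in complex IV. The 12 expressed members of complex IV ran from 16.8 to 898 CPM per kb of transcript in Input (SD 1.88 in log2 units across genes). In RPF they ran from 251 to 966 CPM per kb of coding sequence (SD 0.59). In Input and RPF these SDs were 1.70 and 1.11 in complex I, 1.16 and 0.81 in complex II, and 1.47 and 1.01 in complex III. In complex V they were 1.48 and 1.32, over the 82 members 1.69 and 1.24, and over protein-coding genes 1.91 and 2.29. With CPM not scaled by length, RPF kept the smaller SD in complexes I to IV, but complex V had 1.08 in Input and 1.22 in RPF.

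**Figure D2:**
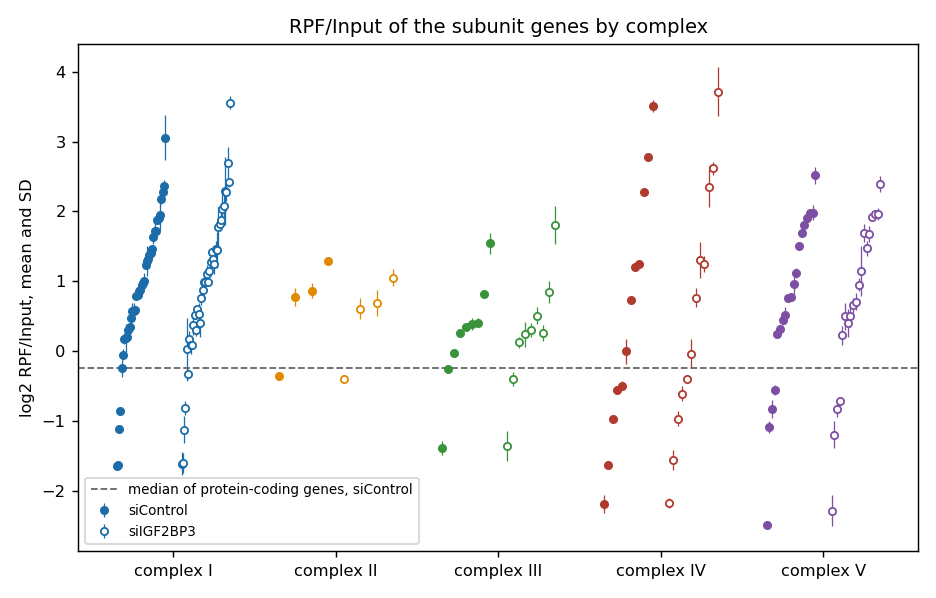
log2 RPF/Input of the 82 members with at least 5 CPM in siControl Input, by complex, filled for siControl and open for siIGF2BP3, sorted by the siControl value. Points are means and bars are SD (n = 2 in siControl, where replicates 2 and 3 count as 1, and n = 3 in siIGF2BP3). The dashed line is the siControl median of the protein-coding genes, -0.23, and every complex has members on both sides of it.

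In complex I the electron-carrying core was represented by NDUFV1, which holds the flavin that accepts electrons from NADH, and NDUFS1, an iron-sulfur subunit. NDUFS1 had 208, 202 and 202 CPM in siControl Input and 309, 311 and 305 CPM in siControl RPF, a log2 RPF/Input of 0.59 ± 0.03. NDUFV1 had 68.0, 68.0 and 67.8 CPM in Input and 116, 119.7 and 116 CPM in RPF, with 0.79 ± 0.02. These values of log2 RPF/Input in siControl are mean ± SD, n = 2. Among protein-coding genes NDUFV1 stood at percentile 78.5 of this ratio, and NDUFS1 lay below NDUFV1 by more than their SDs. Per kb of coding sequence their siControl footprints were 141 CPM for NDUFS1 and 84.2 CPM for NDUFV1, both below the complex I median of 179.1.

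The accessory subunits of complex I held the extremes. NDUFB6, a small membrane-arm subunit, had 15.9, 10.8 and 12.1 CPM in siControl Input and 113, 111 and 111 CPM in siControl RPF, a log2 RPF/Input of 3.06 ± 0.32 (SD, n = 2), the highest of the complex. NDUFA5, an accessory subunit of the matrix arm, had 108, 107 and 97.7 CPM in Input and 34.7, 33.9 and 31.5 CPM in RPF. Its ratio in siControl replicates 1, 2 and 3 was -1.64, -1.66 and -1.63, and that of NDUFA6 was -1.62, -1.67 and -1.58. These were the 2 lowest means of the complex and did not differ beyond their spread. Per kb of transcript NDUFA5 and NDUFA6 had 19.0 and 90.9 CPM in Input, above the 9.50 CPM of NDUFB6, and per coding kb they had 96.8 and 82.8 CPM in RPF, below its 292 CPM. The highest Input levels per kb of canonical transcript were 794 CPM for NDUFS5, which sits on the intermembrane space side, and 251 CPM for NDUFAB1, the mitochondrial acyl carrier protein. NDUFS5 had 404, 391 and 384 CPM in Input and 219, 217 and 222 CPM in RPF, a ratio of -0.85 ± 0.04. NDUFAB1 had 175, 165 and 160.1 CPM in Input and 336, 323 and 330.3 CPM in RPF, a ratio of 0.97 ± 0.05. The most abundant mRNA of the complex per length gave slightly fewer footprints per coding kb (689.5 CPM) than NDUFAB1 (708 CPM).

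Complex II, succinate dehydrogenase, has the flavoprotein SDHA, the iron-sulfur subunit SDHB and the membrane anchors SDHC and SDHD. SDHA had 186, 184 and 182 CPM in siControl Input and 145, 147 and 145 CPM in RPF, a log2 RPF/Input of -0.35 ± 0.02 (SD, n = 2), the lowest of the complex. SDHB had 61.5, 67.5 and 68.2 CPM in Input and 112, 108 and 110.1 CPM in RPF, with 0.77 ± 0.13. SDHC gave the highest ratio, 1.29 ± 0.03, from 44.6, 42.8 and 41.3 CPM in Input and 107, 102 and 107 CPM in RPF. SDHD had 0.87 ± 0.10, at 14.9, 17.3 and 16.7 CPM in Input and 28.7, 29.8 and 29.2 CPM in RPF, and did not differ from SDHB beyond their spread. SDHA counts were fractional in all 12 libraries, as counts are where a read is divided among several places. Per kb of coding sequence the siControl footprints were 72.9 CPM for SDHA, 131 for SDHB, 209 for SDHC and 61.0 for SDHD.

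In complex III, CYC1 (cytochrome c1) had 113, 109 and 109 CPM in siControl Input and 138, 133 and 126 CPM in RPF, a log2 RPF/Input of 0.26 ± 0.03 (SD, n = 2). UQCRFS1, the Rieske iron-sulfur protein, had 57.4, 58.0 and 54.2 CPM in Input and 71.7, 73.5 and 71.2 CPM in RPF, with 0.34 ± 0.03. UQCRB, which binds near the quinone site, had the lowest ratio of the complex, -1.38 ± 0.10, at 291, 319.8 and 308 CPM in Input and 117, 119 and 111 CPM in RPF. UQCR11, a small accessory subunit, had the highest at 1.55 ± 0.15, with 15.5, 17.0 and 16.3 CPM in Input and 48.6, 45.8 and 44.5 CPM in RPF. Per kb of transcript UQCRH, the hinge protein, led Input at 275 CPM, followed by the core protein UQCRC2 at 149 CPM. UQCRC2 had 276, 292 and 285 CPM in Input and 378, 365 and 378 CPM in RPF.

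In complex IV, cytochrome c oxidase, the catalytic core is made in the mitochondrion and all nuclear members surround it. COX4I1, the largest of them, had 392, 403 and 407 CPM in siControl Input and 269, 279 and 265 CPM in RPF, a log2 RPF/Input of -0.56 ± 0.02 (SD, n = 2). COX7C had the highest Input per kb of the complex (898 CPM) and the lowest ratio, -2.18 ± 0.12, from 524, 581 and 589.7 CPM in Input and 123, 119 and 124 CPM in RPF. COX8A was at the opposite end, with 12.6, 11.3 and 11.2 CPM in Input, 138, 132 and 135 CPM in RPF and a ratio of 3.51 ± 0.08. Per kb of transcript the Input of COX8A was 23.7 CPM. Per kb of coding sequence the siControl footprints of COX7C (645 CPM) and COX8A (654 CPM) were nearly level, as were those of COX6C, second in Input per kb of the complex (562 CPM), at 601. COX6C had 409, 409 and 438 CPM in Input and 135, 139 and 133 CPM in RPF.

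Complex V gave the most footprints. ATP5F1B, the catalytic beta subunit, had 283, 286 and 276 CPM in siControl Input and 1051, 1071 and 1074 CPM in RPF, a log2 RPF/Input of 1.91 ± 0.03 (SD, n = 2). ATP5F1A, the alpha subunit of the head, had 197, 201 and 189 CPM in Input and 782, 764 and 767 CPM in RPF, with 1.98 ± 0.01. Both subunits therefore had more footprint than Input CPM in every siControl replicate. The alpha and beta subunits are present in several copies in the assembled head and the gamma subunit ATP5F1C in a single copy. Per kb of coding sequence the siControl footprints were 467 CPM for ATP5F1A, 669 for ATP5F1B and 326 for ATP5F1C. ATP5IF1, the inhibitor that binds the head when the gradient collapses, had the highest Input per kb of all members, 950.3 CPM, and the lowest ratio. It had 492, 468 and 475 CPM in Input and 86.3, 85.9 and 87.1 CPM in RPF, a ratio of -2.48 ± 0.05, at percentile 6.88 of protein-coding genes. ATP5PD, a subunit of the peripheral stalk, was second of the complex in Input per kb (514 CPM), with 334, 294 and 312 CPM in Input, 151, 146 and 152 CPM in RPF and a ratio of -1.08 ± 0.08.

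The c subunit of the membrane rotor is made from 3 genes, ATP5MC1, ATP5MC2 and ATP5MC3, whose proteins end in the same 77 residues. ATP5MC3 had 95.3, 83.9 and 86.7 CPM in siControl Input and 515, 513 and 524 CPM in RPF, a ratio of 2.52 ± 0.12 (SD, n = 2), the highest of complex V. ATP5MC1 had 37.4, 32.6 and 36.7 CPM in Input and 140.5, 141 and 148 CPM in RPF, with 1.99 ± 0.11. ATP5MC2 had 31.4, 34.0 and 31.7 CPM in Input and 103, 101 and 107 CPM in RPF, with 1.69 ± 0.03. Over the 231 coding bases behind the shared residues ATP5MC1 matches ATP5MC2 at 204 and ATP5MC3 at 185, so footprints can be ambiguous between them, and counts of all 3 were fractional in 5 or 6 of the 6 RPF libraries. Summed over the 3 genes, footprints reached 1806 CPM per coding kb in siControl, above every other member except ATP5F1E at 2787, whose coding sequence is the shorter. Values per coding kb were not corrected for footprints at start and stop codons, which weigh more in short coding sequences.

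Isoform genes that other tissues use were at or near 0. COX6A2 and COX7A1, the heart and muscle forms, were at 0 in all 3 siControl Input libraries, which allows up to 0.240 CPM at 3 counts in the smallest of them, and there COX6A1 had 44.4, 44.7 and 40.1 CPM and COX7A2 34.9, 35.1 and 32.1 CPM. COX4I2, the lung form, had 0.320, 0.743 and 0.794 CPM in siControl Input against 392, 403 and 407 CPM for COX4I1. COX6B2, the testis form, had 0, 0.473 and 0.0794 CPM beside 93.9, 92.5 and 93.3 CPM for COX6B1. COX8C had 0, 0.0676 and 0.0397 CPM. NDUFA4L2, an isoform induced by hypoxia, had 2.16, 2.37 and 2.54 CPM in siControl Input and 3.30, 3.18 and 3.61 CPM in siIGF2BP3 Input, with a log2 change of 0.46 ± 0.21 (SE, adjusted p = 0.202, edgeR). NDUFA4 itself had 33.6, 33.5 and 35.5 CPM in Input and 235, 233 and 237 CPM in RPF, a log2 RPF/Input of 2.79 ± 0.03 (SD, n = 2), second only to COX8A in complex IV.

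The members UQCRHL, ATP5MGL, NDUFC2-KCTD14 and ATP5MF-PTCD1 share sequence with another member. The coding sequences of UQCRH (chr1:46303631-46316776, plus strand) and of its copy UQCRHL (chr1:15807169-15809348, minus strand) are shown here because a footprint cannot be placed where they are identical. Both have 273 bases and come from the hg38 genome through the GENCODE annotation, and capitals mark the 4 positions at which they differ.
UQCRH: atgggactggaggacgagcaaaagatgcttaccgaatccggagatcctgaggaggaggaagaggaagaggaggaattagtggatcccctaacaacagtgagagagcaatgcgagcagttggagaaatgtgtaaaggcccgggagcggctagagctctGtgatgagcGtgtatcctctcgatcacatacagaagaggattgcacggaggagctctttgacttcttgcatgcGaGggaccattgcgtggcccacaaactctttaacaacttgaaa
UQCRHL: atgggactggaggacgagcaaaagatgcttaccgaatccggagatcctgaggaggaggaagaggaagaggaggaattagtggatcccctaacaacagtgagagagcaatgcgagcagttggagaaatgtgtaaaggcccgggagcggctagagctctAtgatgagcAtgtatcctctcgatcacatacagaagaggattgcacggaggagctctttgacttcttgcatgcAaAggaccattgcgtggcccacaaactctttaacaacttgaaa
Counted from the start codon, the changes from UQCRH to UQCRHL are G158A, G167A, G231A and G233A, and 179 of the 246 windows of 28 bases are identical. UQCRHL had 1.32, 1.39 and 2.18 CPM in siControl Input and 59.6, 59.9 and 58.7 CPM in siControl RPF. UQCRH had 150.0, 149 and 143 CPM in Input and 122, 129 and 124 CPM in RPF. UQCRHL counts were fractional in all 6 RPF libraries. The same pattern held for ATP5MGL, a copy of ATP5MG, at 0.599, 0.743 and 0.873 CPM in siControl Input and 15.3, 13.3 and 14.4 CPM in RPF. The readthrough genes NDUFC2-KCTD14 and ATP5MF-PTCD1 share exons with NDUFC2 and ATP5MF, and their values (51.6, 48.2 and 44.6 CPM for NDUFC2-KCTD14 and 61.0, 56.6 and 53.7 CPM for NDUFC2 in siControl Input) cannot be taken as separate transcripts. Their RPF/Input is not interpreted.

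The members that changed in Input after knockdown of IGF2BP3 fell. Of 84 members with enough counts to be tested in RNA (all but ATP5MGL and the 6 COX isoform genes COX4I2, COX6A2, COX6B2, COX7A1, COX7B2 and COX8C), 10 fell and none rose at the threshold of 0.05 on the adjusted p (Benjamini-Hochberg over all 14759 genes tested, edgeR), where 5.96% of all genes tested were called and 1.90% were called and lower. The falls were in complex I (NDUFB6, NDUFS4, NDUFA6 and NDUFS5), complex III (UQCRB and UQCRC2), complex IV (COX6C and COX7C) and complex V (ATP5PF and ATP5IF1), with none among the 4 members of complex II, where SDHA was called under 5 of the alternatives. Beyond the calls, 73 of the 84 log2 changes were below 0, against 49.5% over all genes tested. The median was -0.09 over the members and 0.00 over all genes tested. By complex the medians were -0.09 (I), -0.04 (II), -0.07 (III), -0.11 (IV) and -0.09 (V). At an unadjusted p under 0.05 the counts were 27 lower and 1 higher of 84 members, against 1305 lower and 1712 higher of all 14759 genes tested. DESeq2 called 11 members, where 8.78% of the genes it gave an adjusted p were called, and with the transcript GC offset 13 were called against 6.81% of all genes, each of them a fall. In CPM, all 3 siIGF2BP3 Input libraries lay below all 3 siControl Input libraries for 17 of the 84 members and above them for 4, while over all genes tested 5.73% lay below and 19.2% above.

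The falls were small, and for all 10 except COX7C the groups did not overlap. NDUFS4, an accessory subunit of the electron-input module of complex I (chromosome 5, 53560633 to 53683340), had 95.0, 104 and 95.9 CPM in siControl Input and 84.9, 88.2 and 86.6 CPM in siIGF2BP3 Input. Every siIGF2BP3 library was below every siControl library, and the log2 change was -0.23 ± 0.05 (SE, adjusted p = 0.00910, edgeR). NDUFB6 had the largest change, from 15.9, 10.8 and 12.1 CPM to 9.63, 9.07 and 10.2 CPM, a log2 change of -0.46 ± 0.13 (SE, adjusted p = 0.0315, edgeR), with siControl replicate 1 above the other two controls. Without that library its log2 change was -0.30 (adjusted p = 0.191, edgeR), and its call was lost in 5 of the 6 fits that left out 1 Input library. Its exons share 14 bases with SMIM27 on the opposite strand, which had 6.20 CPM in siControl Input. UQCRB went from 291, 319.8 and 308 CPM to 279.6, 279 and 268 CPM, by -0.20 ± 0.05 (SE, adjusted p = 0.00903, edgeR). COX6C, an accessory subunit of complex IV, went from 409, 409 and 438 to 401, 353 and 368 CPM, by -0.21 ± 0.05 (SE, adjusted p = 0.00983, edgeR). siIGF2BP3 libraries were below siControl libraries in every pairing for both.

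ATP5PF, a subunit of the peripheral stalk of complex V known as coupling factor 6, had 70.6, 78.6 and 75.2 CPM in siControl Input and 65.4, 66.3 and 68.7 CPM in siIGF2BP3 Input, a log2 change of -0.21 ± 0.06 (SE, adjusted p = 0.0259, edgeR). Its exons overlap those of GABPA, on the opposite strand, by 413 bases, and strand handling in counting was not stated. NDUFA6 went from 99.7, 97.6 and 94.9 to 91.8, 88.4 and 84.1 CPM, by -0.19 ± 0.05 (SE, adjusted p = 0.0278, edgeR). COX7C went from 524, 581 and 589.7 to 507, 523 and 526 CPM, by -0.17 ± 0.05 (SE, adjusted p = 0.0312, edgeR), with its lowest siControl library below its highest siIGF2BP3 library.

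The 3 remaining falls had the smallest changes. UQCRC2 went from 276, 292 and 285 CPM in siControl Input to 255, 262 and 271 CPM in siIGF2BP3 Input, by -0.16 ± 0.04 (SE, adjusted p = 0.0277, edgeR). NDUFS5 went from 404, 391 and 384 to 369, 361 and 374 CPM, by -0.14 ± 0.04 (SE, adjusted p = 0.0445, edgeR). ATP5IF1 went from 492, 468 and 475 to 453, 439.7 and 450.2 CPM, by -0.14 ± 0.04 (SE, adjusted p = 0.0448, edgeR). Several of the most abundant mRNAs of the chain were among those that fell, COX7C, ATP5IF1, COX6C and NDUFS5 being the 4 highest per kb in Input. Calls depend on the SE as well as the change, and COX7A2 (-0.23 ± 0.07) and NDUFB2 (-0.22 ± 0.09, SE) were not called. Over the 82 members the relation of Input CPM to the RNA change was weak (Spearman rho -0.25, a description). The catalytic or electron-carrying subunits described above, and COX4I1, did not pass the edgeR test in RNA, while the core protein UQCRC2 did. Log2 changes of those that did not pass were -0.06 ± 0.05 for NDUFS1, -0.10 ± 0.06 for NDUFV1, -0.14 ± 0.04 for SDHA, -0.04 ± 0.06 for SDHB, 0.01 ± 0.05 for CYC1, -0.08 ± 0.06 for UQCRFS1, -0.12 ± 0.04 for COX4I1, -0.11 ± 0.05 for ATP5F1A and -0.09 ± 0.04 for ATP5F1B (SE). SDHA was near the threshold (adjusted p = 0.0565, edgeR) and was called as a fall with DESeq2, RLE factors, upper-quartile factors, the gene length offset and the transcript GC offset. COX4I1 was called as a fall with DESeq2, with the transcript GC offset and without siControl Input replicate 1. Single libraries moved the count. Without siControl Input replicate 3 or without siIGF2BP3 Input replicate 3, 1 member was called, NDUFS4, and with any other Input library left out 3 to 7 were called (3 without siControl replicate 2, 4 without siIGF2BP3 replicate 2, 6 without siIGF2BP3 replicate 1 and 7 without siControl replicate 1), each of them a fall.

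**Figure D3:**
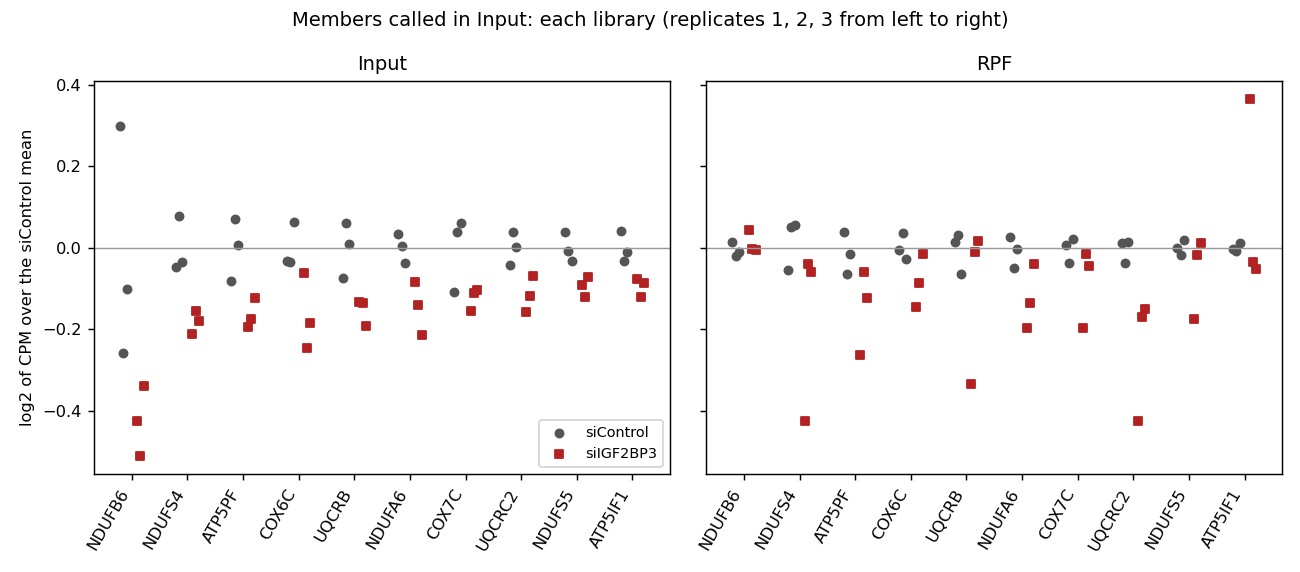
The 10 members called in Input, ordered by log2 change, with each library's CPM as log2 over the siControl mean (y axis), in Input (left) and RPF (right). Grey circles are siControl and red squares siIGF2BP3, with replicates 1, 2 and 3 from left to right. In Input the red squares sit below 0 for all 10 members, and in RPF siIGF2BP3 replicate 1 is the lowest of its group for most members but the highest for ATP5IF1 and NDUFB6.

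Promoter sequences are shown for NDUFS4 and NDUFA6, because many nuclear respiratory genes carry sites for the activators NRF1, GABPA (an ETS factor) and YY1 and both genes fell in Input. They come from RefSeq (GRCh38.p14), 5' to 3' on the gene's strand, with capitals for the motif letters.
NDUFS4, chr5:53560539-53560688, plus strand, 100 bases before to 50 after the start site: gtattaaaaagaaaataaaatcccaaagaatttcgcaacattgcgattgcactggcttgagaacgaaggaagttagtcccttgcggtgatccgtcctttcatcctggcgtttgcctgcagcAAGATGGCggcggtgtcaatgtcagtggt
NDUFA6, chr22:42090723-42090822, minus strand, 50 bases before to 50 after the start site: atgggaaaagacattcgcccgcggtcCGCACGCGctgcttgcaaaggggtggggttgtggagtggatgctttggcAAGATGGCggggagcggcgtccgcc
The motifs searched on both strands were CGCANGCG for NRF1, CCGGAAG for GABPA and AAGATGGC for YY1, which do not overlap in these promoters. The YY1 letters in both contain the start codon of the annotated coding sequence, and NDUFA6 holds the NRF1 letters ahead of its start site. ATP5PF holds the NRF1, GABPA and YY1 letters upstream of the first of its listed start sites. Of the 91 members 71 have at least 1 promoter in the table, 84 promoters of 300 bases in all. The NRF1 letters were in 33.3% of them against 12.8% of the 22199 promoters of protein-coding genes and 10.0% of all 35116 promoters. The GABPA letters were in 26.2% against 12.8% and 10.3%, and the YY1 letters in 15.5% against 3.53% and 2.89%. Among the fallen members with a promoter there, ATP5IF1, COX7C, NDUFB6 and UQCRC2 held none of the 3. A match is a description of letters and not a bound site.

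In RPF none of the 85 members tested (all but the 6 COX isoform genes) passed an adjusted p of 0.05 (edgeR), where 1.66% of all 20192 genes tested were called. At an unadjusted p under 0.05 there were 10 lower and 3 higher members of the 85, against 1598 lower and 1653 higher of all 20192 genes tested. DESeq2 called 1, UQCR10, which was higher, against 3.91% of all genes that it gave an adjusted p. The median log2 change was -0.03 over the members and 0.01 over all genes tested. By complex it was 0.01 (I), -0.13 (II), -0.05 (III), -0.03 (IV) and -0.06 (V), and without siIGF2BP3 RPF replicate 1 it was 0.00 (I), -0.10 (II), -0.03 (III), -0.03 (IV) and -0.02 (V), with -0.02 over all members tested. In the fit with all libraries the 4 members of complex II had values below 0, with every siIGF2BP3 RPF library below every siControl RPF library in CPM, as held for 14.8% of all genes tested. SDHA was at 145, 147 and 145 CPM in siControl RPF and 131, 131 and 132 CPM in siIGF2BP3 RPF, a log2 change of -0.13 ± 0.04 (SE, adjusted p = 0.20, edgeR). SDHC went from 107, 102 and 107 to 81.1, 98.6 and 96.3 CPM, by -0.18 ± 0.06 (SE, adjusted p = 0.222, edgeR). UQCRC2 had the lowest value of all members, -0.22 ± 0.06 (SE), which was -0.16 ± 0.02 without siIGF2BP3 RPF replicate 1, where NDUFA10 was lowest at -0.18 ± 0.04. Its footprints went from 378, 365 and 378 to 279, 333 and 338 CPM.

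The members spread out in siIGF2BP3 RPF replicate 1. Relative to the siControl RPF mean it ran from -0.43 to 0.79 on the log2 scale over the 82 members, against -0.25 to 0.17 in replicate 2 and -0.15 to 0.21 in replicate 3. It was above both others for 31 members and below both for 50, and lay over 0.2 from their mean for 34, while replicates 2 and 3 were never over 0.2 apart. The members high in that library included NDUFS7, NDUFB7 and UQCR11, singled out after their values were seen. In siIGF2BP3 RPF replicates 1, 2 and 3 NDUFS7 had 104, 62.2 and 62.0 CPM. NDUFB7 had 118, 74.1 and 68.2 CPM and UQCR11 had 76.1, 49.4 and 48.1 CPM, so replicate 1 was the highest for each. NDUFS4 was low there, with 33.4, 43.7 and 43.1 CPM, as was UQCRC2, with 279, 333 and 338 CPM. The GC content of the canonical transcript moved with this (Pearson r = 0.66 over 82 members in replicate 1, 0.24 in replicate 2 and 0.07 in replicate 3, a description over genes of the same library). The part of GC content in the RPF results was not tested beyond an offset, with which 4 members were called in RPF (UQCRC2, ATP5MC3 and NDUFA4 lower and UQCR10 higher), where 5.68% of all genes tested were called with that offset.

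**Figure D4:**
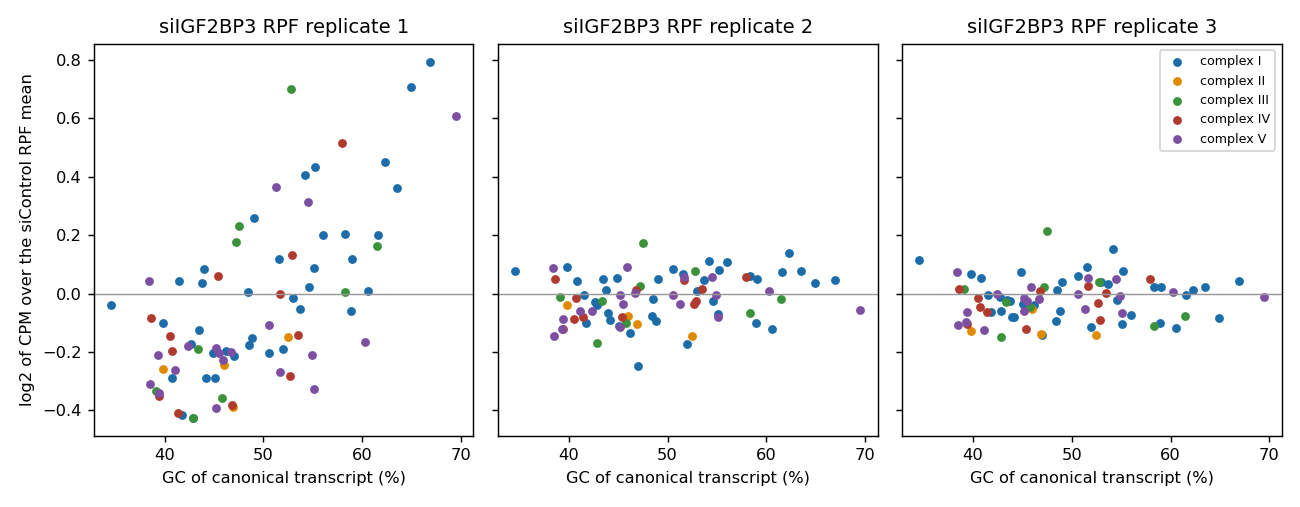
Each siIGF2BP3 RPF library against the siControl RPF mean (y axis, log2 of CPM) by GC content of the canonical transcript (x axis, percent), for the 82 members with at least 5 CPM in siControl Input, coloured by complex. Replicate 1 runs from -0.43 to 0.79 and rises to the right, while replicates 2 and 3 stay between -0.25 and 0.21.

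Without siIGF2BP3 RPF replicate 1, 17 of 85 members were called in RPF, 14 lower and 3 higher, where 16.5% of all 20615 genes tested were called, so the members' share (20.0%) was near the background. The lower ones included the core subunits NDUFS1 (-0.08 ± 0.02), NDUFV1 (-0.13 ± 0.03) and SDHA (-0.15 ± 0.03, SE). They also included NDUFA10, NDUFAB1, NDUFB11, NDUFC2-KCTD14, SDHC, UQCRC1, UQCRC2, NDUFA4, ATP5MC3 and ATP5MG, between -0.08 and -0.18. NDUFC2-KCTD14 shares exons with NDUFC2, which was not called here. ATP5MG exons share 277 bases with another protein-coding gene on the same strand (61.7 CPM in siControl RPF). NDUFB11 exons share 636 with RBM10 on the opposite strand (43.7 CPM in siControl RPF). UQCR10, a small subunit of complex III, rose by 0.19 ± 0.03, from 109.7, 111 and 107 CPM in siControl to 128, 123 and 127 CPM in siIGF2BP3 RPF replicates 1, 2 and 3. NDUFB2, an accessory subunit of complex I, rose by 0.13 ± 0.03, and ATP5F1E, the epsilon subunit of complex V, by 0.08 ± 0.02 (SE). Beyond NDUFS1, NDUFV1, SDHA and the members of the naming rule, these genes were named after their values were seen. Of the 10 members that fell in Input only UQCRC2 was among the 14. The remaining siIGF2BP3 RPF libraries, with a mean chi-square of 1.15 over all genes, then count as 2 samples. Over the members their chi-square was 1.20, near the 1.21 of siControl RPF replicates 2 and 3. Both groups of this fit thus hold a pair near sampling noise, so its SEs and p-values may be too small.

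No member was called in TE either (0 of 84 tested, edgeR), where 2.17% of all 13395 genes tested were called. 12 members had an unadjusted p under 0.05, 11 of them higher, where 2130 of all 13395 genes tested had one, 989 higher and 1141 lower. DESeq2 called 3 (NDUFB2, NDUFB6 and ATP5F1E), all higher, against 4.50% of all genes that it gave an adjusted p. With the transcript GC offset NDUFB2, NDUFB6, NDUFS6 and ATP5ME were called, 4 in all and all higher, where 5.88% of all genes were called. The TE comparison contains the same Input libraries as the RNA comparison, so a member that is lower in Input is higher in TE at equal footprints. Of the 84 log2 changes of RPF/Input 63 were above 0, against 6907 of 13395 over all genes tested. The median was 0.08 over the members and 0.01 over all genes tested. By complex the medians were 0.12 (I), -0.06 (II), 0.08 (III), 0.09 (IV) and 0.03 (V). Without siIGF2BP3 RPF replicate 1 these medians were 0.12 (I), -0.02 (II), 0.06 (III), 0.09 (IV) and 0.09 (V). NDUFB6 had the highest, 0.50 ± 0.13 (SE, adjusted p = 0.0592, edgeR), with footprints at 113, 111 and 111 CPM in siControl and 116, 112 and 112 CPM in siIGF2BP3. NDUFB2 followed at 0.47 ± 0.12 (SE, adjusted p = 0.0527, edgeR). Its Input was 19.9, 19.3 and 17.8 CPM in siControl and 16.0, 17.4 and 17.0 CPM in siIGF2BP3. Its RPF was 93.3, 93.1 and 93.8 CPM in siControl and 124, 101 and 104 CPM in siIGF2BP3, so all siIGF2BP3 libraries were lower in Input and higher in RPF. NDUFB2 exons overlap those of BRAF on the opposite strand by 1239 bases, and BRAF had 36.5 CPM in siControl Input. ATP5IF1 stood at 0.26 ± 0.12 (SE, adjusted p = 0.307, edgeR) and COX8A at 0.26 ± 0.21 (SE, adjusted p = 0.588, edgeR).

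Without siIGF2BP3 RPF replicate 1, 6 of 84 members were called in TE, where 10.0% of all 13479 genes tested were called. NDUFB6 (0.47 ± 0.12), NDUFB2 (0.36 ± 0.09), COX7A2 (0.25 ± 0.07), ATP5F1E (0.24 ± 0.06) and UQCRB (0.22 ± 0.06) rose (SE). ATP5F1E exons share 1188 bases with TUBB1 on the opposite strand, which had 56.4 CPM in siControl Input and 10.4 CPM in RPF. These fits counted siControl RPF as 3 samples, and their SEs and p-values carry the limit given above for RPF. With siControl RPF replicates 2 and 3 summed to 1 sample and siIGF2BP3 RPF replicate 1 left out, 10 members were called in RPF (8 lower and 2 higher), where 14.5% of all genes were called, and 5 in TE, all higher, where 8.05% were called. With the same sum and siIGF2BP3 RPF replicate 1 kept, no member was called in RPF or TE, where 0.0673% and 1.06% of all genes were called.

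**Figure D5:**
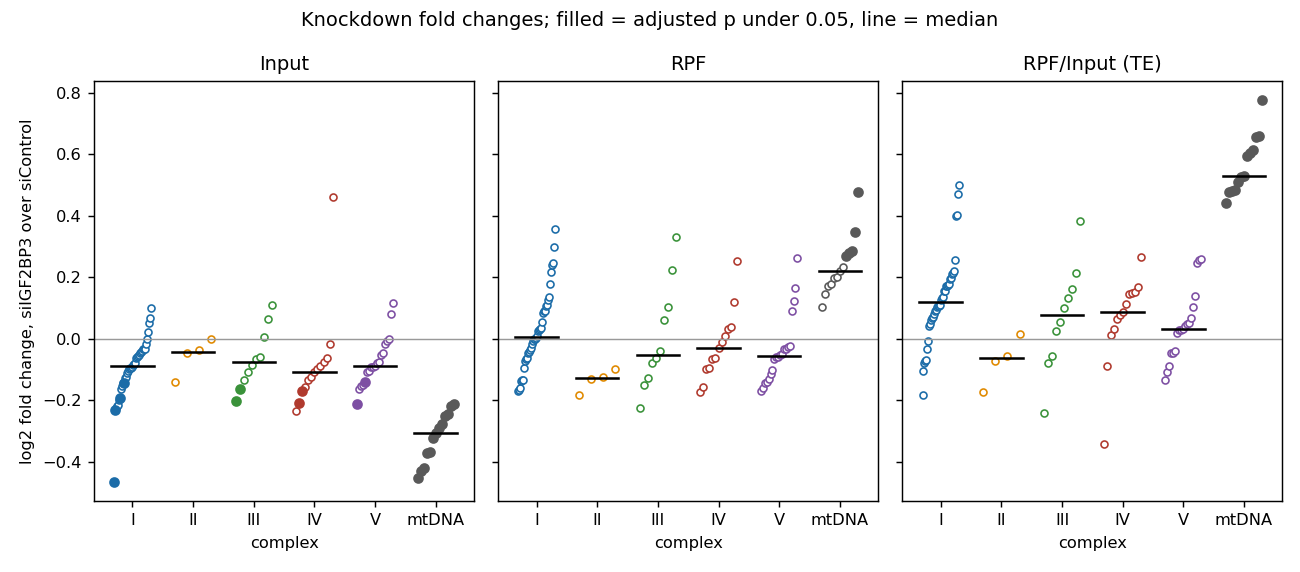
log2 changes after IGF2BP3 knockdown (y axis) in Input, RPF and RPF/Input for the members tested, by complex, and for the 13 subunits encoded in mitochondrial DNA (mtDNA). Filled points have an adjusted p under 0.05 and black lines are medians. Filled points of the nuclear complexes occur in Input, where 10 members fell, and the mtDNA genes are all filled in Input, below 0, and in RPF/Input, above 0.

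Other genes of the pathway were counted for comparison. The 13 subunits encoded in mitochondrial DNA, the partners of these members in complexes I, III, IV and V, all fell in Input (13 of 13, median log2 change -0.31) and none fell in RPF, where 5 of 13 rose (median 0.22), and all 13 rose in TE (median 0.53). Of all genes tested, 5.96% were called in Input, 1.66% in RPF and 2.17% in TE. The 13 are translated inside the mitochondrion, and whether cycloheximide and the footprint size served there as in the cytosol was not tested. The summed CPM of the 13 was 20545, 20370 and 20888 in siControl Input and 15744, 17246 and 17334 in siIGF2BP3 Input, and 4242, 4431 and 4378 against 4597, 5317 and 5087 CPM in RPF, without overlap in either assay. Without siIGF2BP3 RPF replicate 1, all 13 rose in RPF and in TE. For the nuclear members the summed CPM was 9124, 8998 and 8934 in siControl Input against 8581, 8621 and 8707 in siIGF2BP3 Input, and 12632, 12496 and 12551 against 11912, 12307 and 12323 in RPF, the siIGF2BP3 libraries being lower in both assays. The log2 ratio of the nuclear sums, siIGF2BP3 over siControl, was -0.06 in Input and -0.05 in RPF. Of 61 assembly factors, which build the complexes but are not part of them, 1 fell in Input (NDUFAF2, at -0.19 ± 0.06) and 1 rose (UQCC1, at 0.26 ± 0.07, SE), against 5.96% of all genes called, and their median in Input was -0.04. None was called in RPF or TE. Without siIGF2BP3 RPF replicate 1, 2 rose (LYRM2 and UQCC1) and 2 fell (FOXRED1 and ACAD9) in RPF and 3 rose in TE (UQCC2, NDUFAF2 and TMEM70), against 16.5% and 10.0% of all genes called. Of 12 regulators of respiratory genes in the nucleus or the mitochondrion none was called in Input or RPF. Only TFAM, the packaging protein of mitochondrial DNA, was called in TE, where it rose (0.30 ± 0.08, SE, adjusted p = 0.0475, edgeR). Without siIGF2BP3 RPF replicate 1, 1 regulator rose (TFAM) and 2 fell (ESRRA and CLUH) in RPF, and 1 rose (TFAM) and 1 fell (ESRRA) in TE.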

How the data were processed

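Ribosome profiling (ART-seq) of HepG2 cells gave 3 Input and 3 RPF libraries for siControl and for siIGF2BP3. The Input preparation is not given in the sources used here. Reads had been trimmed (Cutadapt), mapped to hg38 (STAR) and assigned to genes (featureCounts) by the authors. The deposited values are estimated counts, because many are fractional (31.8% to 66.0% of the values above 0 in a library), and versions, strand and multi-mapping options were not stated. Of 58721 identifiers 99.2% were named through GENCODE release 44, and unnamed ones held 0.526% of counts. Members, lists and tests were chosen with earlier results of these data known.

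Counts were rounded and tested with edgeR 4.0.16 (quasi-likelihood, TMM factors, filterByExpr), siIGF2BP3 against siControl in Input (RNA), in RPF, and as the interaction of assay and siRNA (TE), fitted on all genes with Benjamini-Hochberg adjustment and a threshold of 0.05. The script was tested on simulated data, in which small changes were often missed. Alternatives were DESeq2 1.42.0, RLE and upper-quartile factors, no filter, protein-coding genes only, offsets for gene length and (added after seeing the data) transcript GC, a replicate block, siControl RPF replicates 2 and 3 summed (also, added after seeing the data, with siIGF2BP3 RPF replicate 1 left out), a culture block and leaving out each library. Ratios used same-numbered libraries and a mean of at least 5 CPM in siControl Input. Lengths, GC and coding sequences are those of the canonical transcript. Genes were named by complex: members called, highest and lowest RPF/Input, the 2 highest Input levels per length, core subunits, isoform pairs and members that share reads. Values of 1 member are not reported here.

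Replicate numbers come from the labels, which do not say that a number marks a shared culture. Deviations from the group means of same-numbered siControl and siIGF2BP3 RPF libraries correlated at 0.33, 0.27 and 0.10 over genes, all above 0.1, and were treated as paired in the blocked fit. Those of the Input libraries correlated at 0.04, -0.01 and -0.03. Input and RPF deviations of the same number correlated at 0.00, 0.01 and -0.01 in siControl and -0.16, -0.08 and -0.10 in siIGF2BP3. Deviations of a gene sum to 0 within a group, so the values of a set are not separate evidence of pairing.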

Additional observations from a re-analysis of the deposited data

How the results depend on the processing

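The number of members called in Input was 10 and ranged from 7 to 13 when another choice was changed, each call a fall, and the median log2 change ranged from -0.067 to -0.10, the value -0.067 coming with the gene length offset. Leaving out 1 Input library gave 1 to 7 calls. All 10 kept a negative log2 change in every alternative that gave a value. NDUFS4 lost its call in 1 of 14 alternatives, COX6C and UQCRB in 3 of 14, and NDUFS5 and COX7C in 7 of 14. NDUFB6 lost its call in 5 of 13, with DESeq2 giving it no adjusted p. DESeq2, RLE factors, upper-quartile factors and the length and GC offsets added SDHA.

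In RPF the count was 0 and became 1 with DESeq2 and 4 with the transcript GC offset, and leaving out 1 library gave 0 to 17, the 17 without siIGF2BP3 RPF replicate 1. In TE the count was 0 and became 3 with DESeq2, 4 with the transcript GC offset and 1 with RLE factors, upper-quartile factors, no filter or the gene length offset. Leaving out 1 library gave 0 to 6, the 6 without siIGF2BP3 RPF replicate 1. With siControl RPF replicates 2 and 3 summed and that library left out, the counts were 10 in RPF and 5 in TE. With the replicate block the pairing changed no count of members (10 in RNA, 0 in RPF and 0 in TE). The median log2 RPF/Input of the members in siControl, 0.78, was 0.81 with TMM-scaled library sizes.

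Limits are the 3 libraries of a group, siControl RPF standing for 2, reads shared between near-identical genes, and ratios that depend on unstated multi-mapping options. In the main edgeR fits, before any alternative, every member tested except NDUFB6 in TE moved by less than 0.5 on the log2 scale. Some alternatives gave more, such as -0.59 for NDUFB6 in RNA without siControl Input replicate 2. NDUFB2 was at 0.53 in TE without siIGF2BP3 RPF replicate 2.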
